A study of Homo sapiens with 6 samples.

Results

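The genes described here are 53 that build and run mitosis: the kinases and cyclins of mitotic entry, the spindle checkpoint, the chromosomal passenger complex, kinetochore and centromere proteins, kinesins, spindle and cytokinesis factors, condensin, the trigger of anaphase, and FOXM1 and MYBL2. They were taken by gene symbol from the 17891 genes of the deposited table, were all found there, and all passed the filter on low counts that left 14076 genes for testing. The RNA came from T47D, an established human breast cancer line of the luminal, estrogen receptor-positive kind. Both groups were made with the PLVX-puro lentivirus, a vector named for its puromycin resistance gene: the control group (T47D-PLVX, 3 libraries) received the control lentivirus and the PRL group (T47D-PRL, 3 libraries) one with PRL, the gene of the hormone prolactin. The comparison asked how transcripts differ in cells that overexpress prolactin. All cells had grown for 2 days in RPMI1640 with FBS, and the treatment entry is NT in both groups. The design text calls the 3 libraries of a group biological replicates but does not say whether the cells were pools or clones, or whether replicates came from separate transductions, so the p-values measure the spread between these libraries.

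Most of these genes are silent in resting cells and are transcribed as a wave late in the cell cycle. FOXM1, MYBL2 and the MuvB complex switch on the wave through a promoter element called the cell cycle genes homology region (CHR), and the CCAAT box, bound by NF-Y, lies close to it in many of these promoters. CDK1 with its B-type cyclins starts mitosis, kinetochores and kinesins attach and move chromosomes, and the checkpoint holds back the anaphase-promoting complex until every chromosome is attached. In bulk RNA, fewer cells in mitosis and less of a transcript in each cell cannot be told apart.

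Libraries held 16211146 to 17402348 counts. Levels are CPM, read counts normalised by edgeR to library sizes that were scaled with its TMM method, given for replicates 1, 2 and 3 in that order or as mean ± SD (n = 3), and fold changes are PRL over control on the log2 scale. PRL itself stood at 0.152 ± 0.0781 CPM in control cells and at 449.6 ± 7.63 CPM in PRL cells. Control libraries varied more than PRL libraries: chi-square per gene between 2 libraries was 12.7 to 24.4 within the controls and 1.66 to 2.17 within the PRL group. The counts of ribosomal protein genes made up 16.5% ± 1.64 of a control library and 10.3% ± 0.284 of a PRL library, and with those genes left out the same 33 mitosis genes were called lower. Markers of luminal epithelium were high in every library, with summed levels of 20679 to 26887 CPM in controls and 16272 to 16795 CPM in the PRL group, and 4 of the 10 fell and 4 rose. Of the markers of other cells, 8 fibroblast genes summed to 44.0 to 61.3 CPM in controls and 77.3 to 78.0 CPM in the PRL group, most of it COL1A1, and 7 leukocyte genes to 9.80 to 13.01 and 22.9 to 25.2 CPM, led by CD68 (3.54 ± 0.475 and 15.1 ± 0.441 CPM). Of these, 2 fibroblast genes (both higher) and 6 leukocyte genes (3 higher, 1 lower) had enough counts to be tested. The pan-leukocyte marker PTPRC had 0.925 ± 0.0828 and 0.950 ± 0.247 CPM. The 3 endothelial genes found summed to 0.936 to 1.53 and 0.881 to 1.08 CPM, and the 2 pituitary genes to 0.686 to 0.957 and 0.970 to 1.38 CPM. The part of these other-cell transcripts in the results was not tested.

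Most, but not all, of the mitosis genes had lower transcript levels in the PRL group. Of the 53 genes, 33 (62.3%) fell, 1 (1.89%) rose and 19 did not pass (edgeR's quasi-likelihood test, adjusted p under 0.05). Among all genes tested 62.9% were called, 30.5% lower and 32.4% higher. All PRL libraries lay below all controls for 34 of the 53 (64.2%), against 33.5% of all genes tested. The median log2 fold change of the 53 was -0.42, beside 0.01 for all genes tested. The log2 fold changes ran from -1.54 for SPC24 to 0.31 for KIF14, and 10 of the 53 (18.9%) fell by at least 2-fold, against 5.29% of all genes tested. Summed over the 53 genes the level was 7369, 6991 and 7511 CPM in the control libraries and 4995, 5019 and 4955 CPM in the PRL libraries. The PRL libraries thus lay close together and below every control. The median coefficient of variation of the 53 genes was 11.3% between control libraries and 2.69% between PRL libraries.

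The direction rests on what the other genes are set against. The median of all genes moved from 0.01 with TMM to 0.26 with library totals, 0.20 on log2(FPKM + 1) and 0.39 on log2(TPM + 1), so that on TPM 12 of the 53 genes fell and 13 rose, where 11.1% of all genes fell and 56.9% rose. Measured from the median of all genes, the median of the 53 stayed between -0.52 and -0.36 in the 21 settings run, and 37 of the 53 lay below the median of all genes in every setting. Called lower in every setting were 12 genes: CDC25C, AURKB, BIRC5, CENPM, CENPN, SPC24, SPC25, NCAPG, SMC4, CDC20, PTTG1 and MYBL2. The same counts over all genes are not given here, so neither the 37 nor the 12 has a share to be read against. Changes below are relative to the TMM scale.

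**Figure D1:**
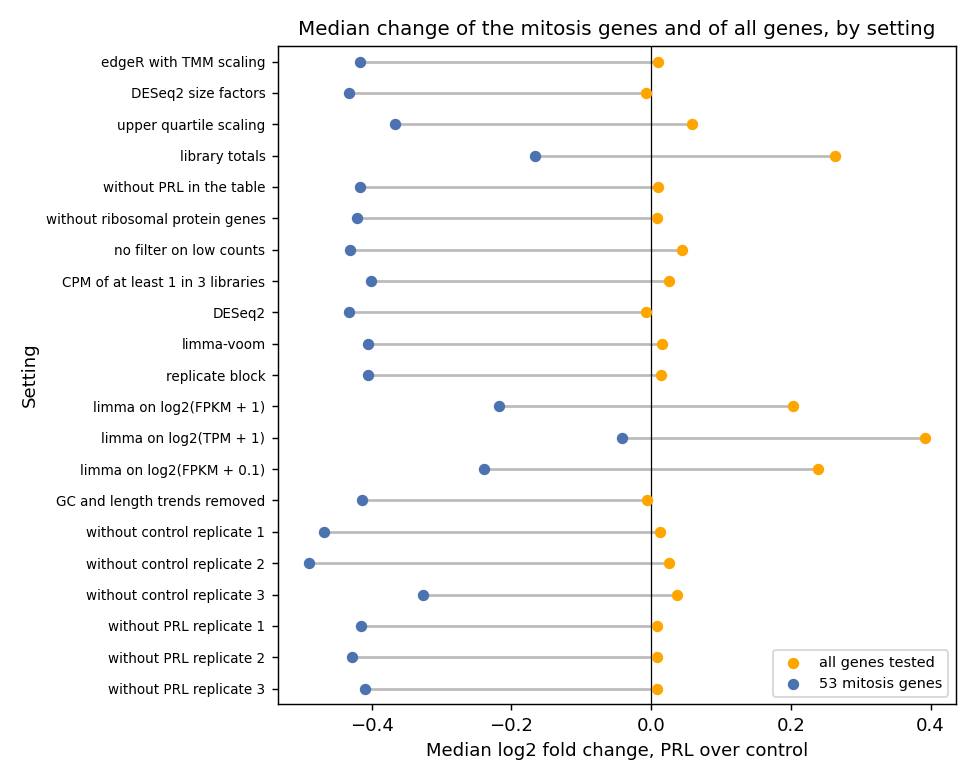
Median log2 fold change (x axis, PRL over control) of the 53 mitosis genes (blue) and of all genes tested (orange) under each setting (rows). The blue point lies 0.36 to 0.52 to the left of the orange point in every row, while both move to the right with library totals, FPKM and TPM, where the median of all genes is 0.26, 0.20 and 0.39.

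Per length, the deposited TPM values ranked PTTG1, the securin that holds separase inactive, first of the 53 in controls (769 ± 29.2 TPM), before UBE2C, the ubiquitin-conjugating enzyme of the anaphase-promoting complex (437 ± 47.3 TPM). MYBL2 (224 ± 4.62 TPM) and CDC20 (207 ± 11.7 TPM) came next without overlap between their libraries, and CCNB1 (188 ± 20.1 TPM) overlapped with CDC20. The lowest were the kinesin genes KIF15 (5.83 ± 1.38 TPM), CENPE (3.55 ± 1.04 TPM) and KIF14 (3.01 ± 0.627 TPM), and the libraries of CENPE and KIF14 overlapped. In the PRL group PTTG1 (500.0 ± 9.69 TPM) and UBE2C (419.8 ± 9.60 TPM) were again at the top, and CENPE (4.73 ± 0.283 TPM) and KIF14 (5.09 ± 0.361 TPM) at the bottom, overlapping.

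**Figure D2:**
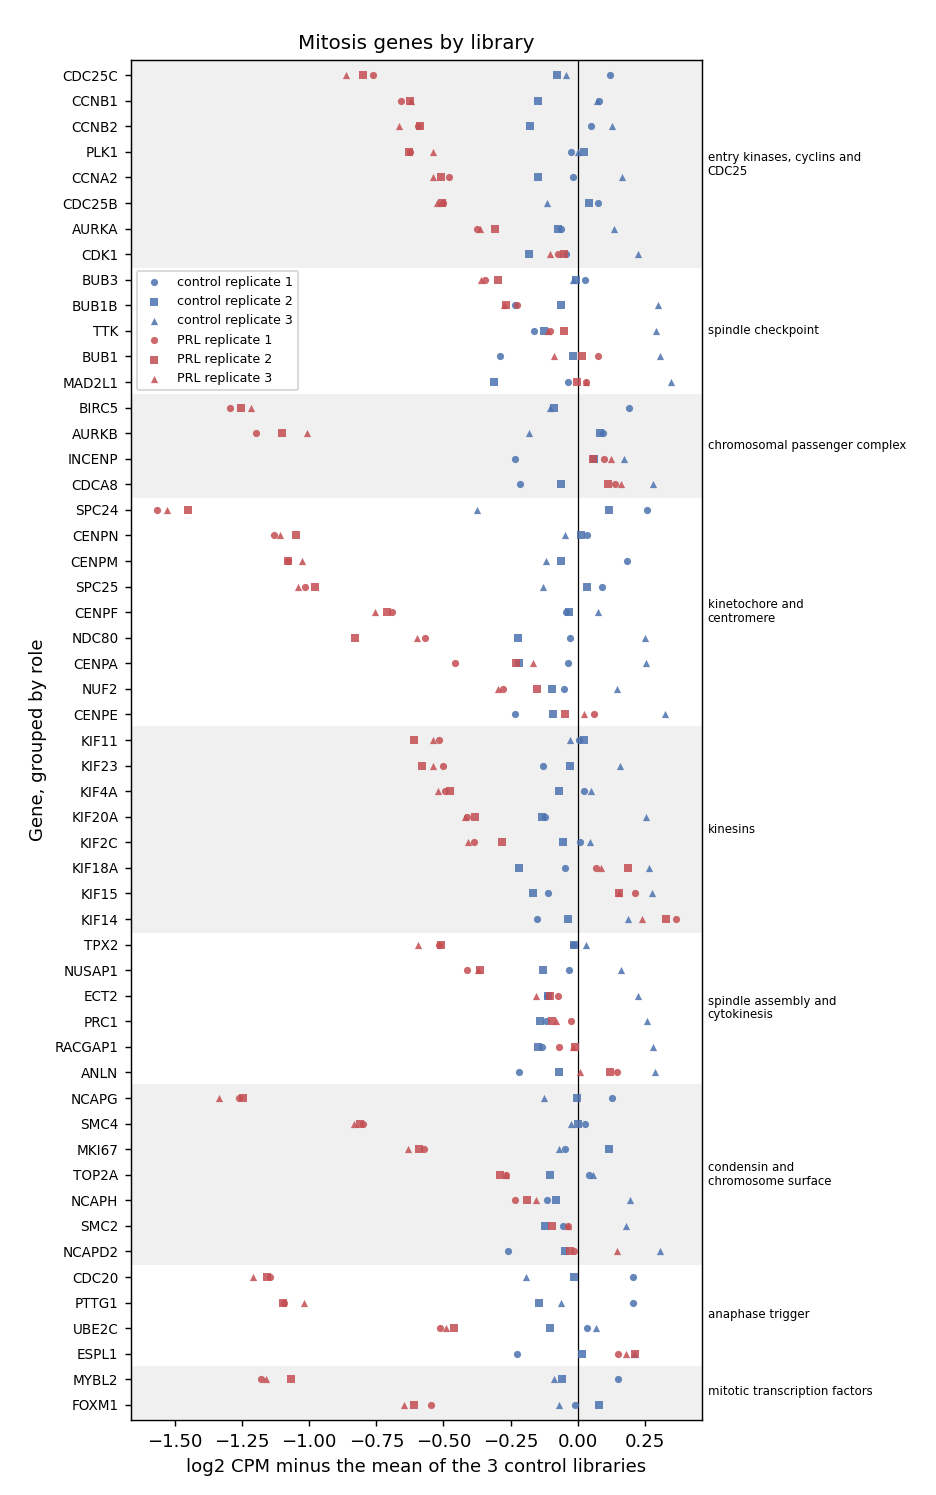
Each row is a gene and each point a library (control blue, PRL red, shape by replicate number), as log2 CPM minus the mean of the 3 controls (x axis). The red points of a gene lie close together, and control replicate 3 (blue triangle) is the highest control for all 19 genes that did not pass and the lowest for 9 of the 10 genes that fell by at least 2-fold.

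The counts per role group are to be read against 30.5% lower and 32.4% higher among all genes tested. Of the 8 genes of mitotic entry, 7 fell (median -0.56, or -0.14 on TPM), and their summed level went from 1257 ± 74.5 to 891 ± 5.48 CPM. CDC25C, the phosphatase that activates CDK1 with cyclin B, had 42.0, 36.6 and 37.5 CPM in the controls against 22.8, 22.1 and 21.2 CPM with PRL (log2 fold change -0.81 with SE 0.09, edgeR adjusted p = 2.4e-05). Its groups did not overlap and each was tight. PLK1, the kinase of centrosome maturation and mitotic entry, had 239, 247 and 244 CPM in the controls against 158, 157 and 167 CPM with PRL (log2 fold change -0.60 with SE 0.07, edgeR adjusted p = 4.8e-05). Its position is GRCh38 chromosome 16, 23677656 to 23690367, and 12.5% of its exon bases are covered by genes on the opposite strand, among them ERN2, with 0.651 ± 0.202 CPM without and 0.764 ± 0.0959 CPM with the PRL virus. The cyclin genes CCNB1 (-0.64), CCNB2 (-0.62) and CCNA2 (-0.52), the phosphatase gene CDC25B (-0.51) and AURKA (-0.35), the kinase of spindle poles, fell too, with edgeR adjusted p from 8.7e-05 for CCNB1 to 0.00301 for AURKA. Opposite-strand genes cover 9.08% of the exon bases of CCNA2 (EXOSC9, log2 fold change -0.77) and 8.78% of those of CDC25C (FAM53C, 0.41). CDK1, the kinase that the cyclins activate, had 146, 133 and 176 CPM in the controls against 143, 146 and 140.5 CPM in the PRL group. Its PRL libraries lay inside the range of the controls (log2 fold change -0.09, 95% interval -0.31 to 0.14, edgeR adjusted p = 0.473), and on TPM it was called higher (0.35, limma adjusted p = 0.0201).

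Of the 5 spindle checkpoint genes 1 fell and 4 did not pass (median -0.10, or 0.34 on TPM and 0.07 without control replicate 3). That share of 20% was under the 30.5% of all genes tested. With trends on GC content and length removed 3 of the 5 fell (median -0.24), BUB1B and TTK among them. Of all genes 33.7% fell there. In DESeq2 2 of the 5 fell. BUB3, a WD-repeat protein that brings BUB1 and BUBR1 to the kinetochore, had 163, 159 and 158 CPM in the controls against 126, 130.1 and 125 CPM with PRL (log2 fold change -0.33 with SE 0.07, edgeR adjusted p = 0.00159). No PRL library of BUB3 reached a control on this scale. Its call ended with library totals (-0.079) and on TPM (-0.057), and on TPM its groups overlapped. BUB1B, which encodes BUBR1, had 54.0, 60.8 and 78.1 CPM in the controls against 54.2, 52.8 and 52.5 CPM in the PRL group and did not pass (log2 fold change -0.27, edgeR adjusted p = 0.0657), although it was called in 6 of the other settings. It shares 10.2% of its exon bases with the readthrough gene BUB1B-PAK6. MAD2L1, the checkpoint protein MAD2 that binds CDC20, had 37.6, 31.0 and 49.1 CPM in the controls against 39.4, 38.4 and 39.4 CPM in the PRL group. Its controls spread to both sides of the PRL libraries (log2 fold change -0.01, 95% interval -0.31 to 0.30, edgeR adjusted p = 0.969), and without control replicate 3 it was called higher (0.21, edgeR adjusted p = 0.0492). The kinase genes BUB1 (-0.02) and TTK (-0.10) did not pass either.

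The chromosomal passenger complex split into 2 genes that fell and 2 that did not pass (median -0.51, or -0.13 on TPM). BIRC5, which encodes survivin, had 311, 257 and 254 CPM in the controls against 111, 114 and 117 CPM with PRL (log2 fold change -1.26 with SE 0.09, edgeR adjusted p = 2.0e-06). AURKB, the kinase of the complex, at GRCh38 chromosome 17, 8204733 to 8210600, had 133, 131 and 109 CPM in the controls against 53.9, 57.7 and 61.5 CPM with PRL (log2 fold change -1.11 with SE 0.09, edgeR adjusted p = 5.5e-06). Their PRL means were 41.7% and 46.4% of the control means, and neither pair of groups overlapped. INCENP, the scaffold that binds and activates AURKB, had 68.1, 83.6 and 90.3 CPM in the controls against 85.8, 83.3 and 87.2 CPM in the PRL group, which overlap (log2 fold change 0.08, 95% interval -0.14 to 0.30, edgeR adjusted p = 0.494). CDCA8, which encodes borealin, likewise overlapped (log2 fold change 0.12, edgeR adjusted p = 0.376). On TPM INCENP and CDCA8 were called higher and BIRC5 and AURKB lower, so the unequal change within the complex held on that scale.

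Of 9 kinetochore and centromere genes 7 fell (median -0.72, or -0.23 on TPM), from a summed level of 692 ± 13.2 to 402 ± 4.48 CPM. CENPN, which reads the CENPA nucleosome, had 92.9, 91.5 and 87.8 CPM in the controls against 41.3, 43.8 and 41.9 CPM with PRL (log2 fold change -1.10 with SE 0.07, edgeR adjusted p = 8.6e-07). CMC2 covers part of it from the opposite strand (22.8% of exon bases lie under opposite-strand genes), and CMC2 fell as well (log2 fold change -0.62). CENPM (-1.07), a subunit of the constitutive centromere network, and CENPF (-0.72), a large protein of the outer kinetochore, fell with edgeR adjusted p of 9.0e-06 and 2.0e-05. The 4 subunits of the NDC80 complex, the rod that binds microtubules and holds 1 copy of each, had unlike fold changes. SPC24 had 84.3, 76.3 and 54.3 CPM in the controls against 23.7, 25.7 and 24.3 CPM with PRL (log2 fold change -1.54 with SE 0.14, edgeR adjusted p = 1.0e-05), the largest fall of the 53, shown in full because of that size. Its partner SPC25 had 58.3, 56.1 and 50.0 CPM in the controls against 27.0, 27.7 and 26.5 CPM with PRL (log2 fold change -1.02 with SE 0.08, edgeR adjusted p = 4.3e-06). NDC80 (log2 fold change -0.68) and NUF2 (-0.25), the other pair of the rod, fell with edgeR adjusted p of 0.00104 and 0.0317. The call for NUF2 was the weakest of the 33 and ended with upper quartile scaling, library totals, FPKM, TPM and the replicate number as a block, and without control replicate 3, PRL replicate 1 or PRL replicate 3. CENPE, a kinesin of the kinetochore, had 18.0, 19.9 and 26.6 CPM in the controls against 22.1, 20.5 and 21.6 CPM in the PRL group, which overlap (95% interval of the log2 fold change -0.30 to 0.29, edgeR adjusted p = 0.964). CENPA, the histone H3 variant of centromeres, did not pass (log2 fold change -0.29, edgeR adjusted p = 0.0720).

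Among the 8 kinesin genes 5 fell, 1 rose and 2 did not pass (median -0.39, or 0.06 on TPM). KIF11, the motor that pushes spindle poles apart, had 134, 136 and 132 CPM in the controls against 93.7, 87.9 and 92.2 CPM with PRL (log2 fold change -0.56 with SE 0.07, edgeR adjusted p = 6.8e-05). The gene is at GRCh38 chromosome 10, 92593286 to 92655395. KIF4A, a chromosome-bound kinesin, had 47.4, 44.4 and 48.3 CPM in the controls against 33.1, 33.5 and 32.5 CPM with PRL (log2 fold change -0.50 with SE 0.07, edgeR adjusted p = 2.2e-04). KIF23 (-0.55) and KIF20A (-0.42), motors of the central spindle, and KIF2C (-0.36), a microtubule depolymerase, fell with edgeR adjusted p of 3.2e-04, 0.00538 and 0.00152. KIF14, a kinesin of cytokinesis, was the 1 gene that rose, with 13.7, 14.9 and 17.3 CPM in the controls against 19.7, 19.2 and 18.0 CPM with PRL (log2 fold change 0.31 with SE 0.11, edgeR adjusted p = 0.0297). The gap between its groups, from 17.3 to 18.0 CPM, was narrower than the range of the controls, and the call ended in DESeq2, without control replicate 1 or 2, without any 1 of the PRL libraries, and with trends on GC content and length removed. KIF18A, which damps chromosome movements, had 25.1, 22.3 and 31.3 CPM in the controls against 27.2, 29.6 and 27.6 CPM in the PRL group, which overlap (95% interval of the log2 fold change -0.16 to 0.36, edgeR adjusted p = 0.480). KIF15 did not pass either (log2 fold change 0.16).

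Of 6 genes of spindle assembly and cytokinesis 2 fell and 4 did not pass (median -0.10, or 0.33 on TPM and 0.05 without control replicate 3, where ANLN was called higher). The 33.3% of this group that fell was near the 30.5% of all genes tested. With trends on GC content and length removed 3 of the 6 fell (median -0.21), ECT2 among them, against 33.7% of all genes. TPX2, the activator of AURKA at the spindle, had 429, 431 and 444 CPM in the controls against 304, 305 and 288 CPM with PRL (log2 fold change -0.54 with SE 0.07, edgeR adjusted p = 1.2e-04). NUSAP1, a microtubule bundling protein, had 193, 181 and 221 CPM in the controls against 149, 154 and 153 CPM with PRL (log2 fold change -0.39 with SE 0.09, edgeR adjusted p = 0.00270). Both pairs of groups were apart on this scale. The call for NUSAP1 ended with library totals, on FPKM and on TPM (0.017), and that for TPX2 on TPM (-0.11). RACGAP1, a subunit of centralspindlin, had 98.0, 97.1 and 131 CPM in the controls against 102, 107 and 106 CPM in the PRL group, between control replicates 1 and 3 (95% interval -0.29 to 0.20, edgeR adjusted p = 0.729). Its partner in centralspindlin, KIF23, fell. PRC1 (-0.08), which bundles the central spindle, ECT2 (-0.12), the exchange factor for RhoA, and ANLN (0.08), the scaffold of the contractile ring, did not pass. Of the exon bases of NUSAP1 62.2%, and of those of PRC1 57.6%, also belong to annotated genes on the same strand, so the division of reads between them is uncertain.

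Of 7 genes of condensin and the chromosome surface 4 fell and 3 did not pass (median -0.28, or 0.18 on TPM). MKI67, the Ki-67 antigen used to count cycling cells, had 234, 262 and 229.9 CPM in the controls against 162, 160.2 and 156 CPM with PRL (log2 fold change -0.60 with SE 0.08, edgeR adjusted p = 8.6e-05). TOP2A, the topoisomerase that untangles sister chromatids, had 416, 377 and 421 CPM in the controls against 336, 330.2 and 336 CPM with PRL (log2 fold change -0.28 with SE 0.08, edgeR adjusted p = 0.0102). The call for TOP2A ended with library totals, on FPKM and TPM, and without PRL replicate 2. That for MKI67 ended on TPM (-0.16, limma adjusted p = 0.230). Within condensin, NCAPG, a HEAT-repeat subunit, had 119, 108 and 99.6 CPM in the controls against 45.2, 45.6 and 42.9 CPM with PRL (log2 fold change -1.29 with SE 0.08, edgeR adjusted p = 9.2e-07). SMC4, an ATPase of the ring, had 295, 289 and 284 CPM in the controls against 166, 165 and 162 CPM with PRL (log2 fold change -0.81 with SE 0.07, edgeR adjusted p = 5.6e-06). The other 3 subunits did not pass: NCAPD2 had 46.8, 54.1 and 69.3 CPM in the controls against 55.4, 54.8 and 61.9 CPM in the PRL group (95% interval -0.27 to 0.30, edgeR adjusted p = 0.924), SMC2, which pairs with SMC4, had a log2 fold change of -0.06, and the kleisin gene NCAPH of -0.20. All PRL libraries of NCAPH lay below its controls. With trends on GC content and length removed NCAPH (-0.29, edgeR adjusted p = 0.00894) and SMC2 (-0.20, edgeR adjusted p = 0.0188) were called lower. There 6 of the 7 genes fell, against 33.7% of all genes. On TPM SMC2 and NCAPD2 were called higher, as were 56.9% of all genes. Genes on the opposite strand cover 33.1% of the exon bases of NCAPG (LCORL, log2 fold change 0.24) and 25.6% of those of SMC4 (IFT80, 0.16, and TRIM59, 0.01). LCORL was called higher (edgeR adjusted p = 0.0365), and IFT80 and TRIM59 did not pass.

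Of the 4 genes that trigger anaphase 3 fell (median -0.78, or -0.34 on TPM). CDC20, the activator of the anaphase-promoting complex that the checkpoint inhibits, had 289, 249 and 219 CPM in the controls against 113, 112 and 109 CPM with PRL (log2 fold change -1.18 with SE 0.10, edgeR adjusted p = 5.6e-06). PTTG1 had 452, 355 and 375 CPM in the controls against 184, 183 and 193 CPM with PRL (log2 fold change -1.08 with SE 0.10, edgeR adjusted p = 9.2e-06). UBE2C fell less (log2 fold change -0.49 with SE 0.08, edgeR adjusted p = 2.6e-04) and lost its call on TPM and with trends on GC content and length removed. ESPL1, the separase that cuts cohesin once PTTG1 is degraded, had 63.1, 74.6 and 85.2 CPM in the controls against 81.9, 85.5 and 83.5 CPM in the PRL group. The PRL libraries lay around the highest control, and 1 of them above it (log2 fold change 0.17, 95% interval -0.06 to 0.40, edgeR adjusted p = 0.168), and without control replicate 3 ESPL1 was called higher (0.30, edgeR adjusted p = 0.00618). Both transcription factor genes fell. MYBL2, which encodes B-MYB, had 495, 428 and 419 CPM in the controls against 197, 213 and 199 CPM with PRL (log2 fold change -1.14 with SE 0.09, edgeR adjusted p = 3.0e-06). FOXM1 had 181, 192 and 173 CPM in the controls against 125, 119 and 116 CPM with PRL (log2 fold change -0.60 with SE 0.07, edgeR adjusted p = 6.3e-05), with 15.9% of its exon bases under ITFG2 on the opposite strand, which did not pass (-0.13).

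**Figure D3:**
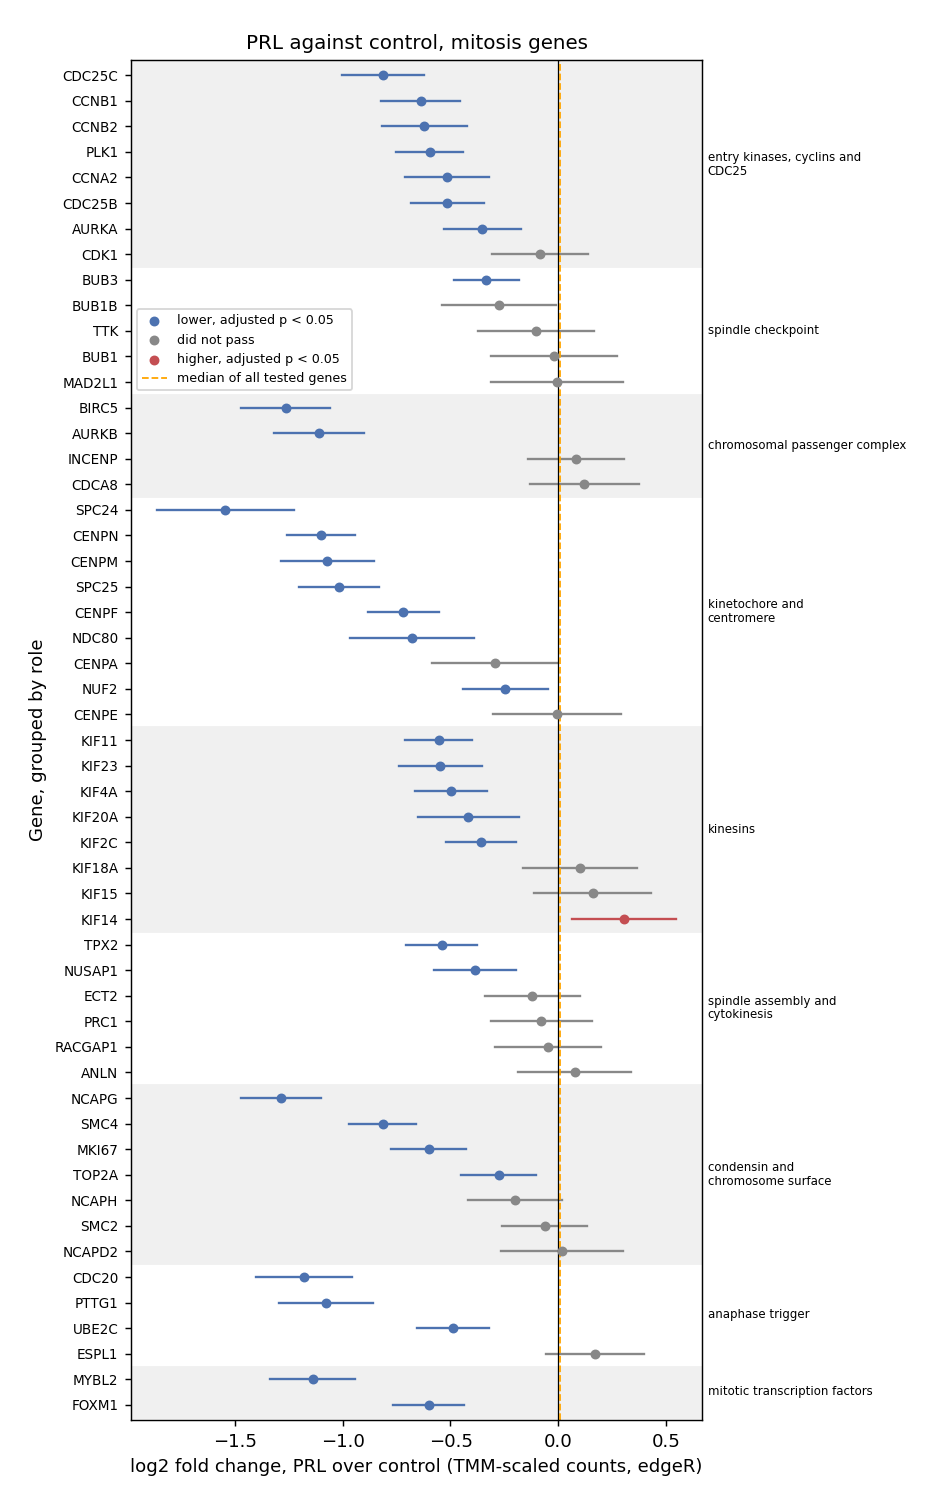
Log2 fold change of each gene, PRL over control, with its 95% interval (x axis, TMM scale), by role. The 33 genes that fell (blue) reach from -1.54 for SPC24 to -0.25 for NUF2, the 19 that did not pass (grey) lie between -0.29 and 0.17, and KIF14 (red) lies at 0.31. On TPM 13 of the 53 were called higher, against 56.9% of all genes.

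The control libraries differed among themselves. Over all genes, control replicates 1 and 3 were farthest apart (chi-square per gene 24.4), with replicate 2 nearer to both (12.7 and 12.9). Ribosomal protein genes made up 18.4%, 15.8% and 15.4% of control replicates 1, 2 and 3. Control replicate 3 was the highest control for all 19 genes that did not pass and for 14 of the 23 that fell by less than 2-fold, while it was the lowest for 9 of the 10 that fell by at least 2-fold. Without that library 32 of the 53 fell, all among the 33, and 7 rose (MAD2L1, CDCA8, KIF14, KIF15, KIF18A, ANLN and ESPL1), with a median of -0.33. Over all genes in that fit 32.7% fell and 36.7% rose. Fold change also ran with transcript length across the 53 genes: Spearman's rho was 0.45 over 53 genes, against 0.23 over 13142 tested genes with a known length, all from the same 6 libraries. Genes with longer transcripts thus tended to have the higher fold changes. With each library's trends on length and GC content removed, 37 of the 53 fell and none rose, with a median of -0.41. There 33.7% of all genes fell and 33.1% rose.

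The promoters of these genes share letters that the choice of genes did not use. RefSeq promoter windows (250 bases before to 50 after the start site, GRCh38.p14) were found for 44 of the 53. The CHR core, searched as TTTGAA or TTCGAA and the reverse complement TTCAAA on both strands, was present in 32 of 44 (72.7%), against 12.4% of the 14125 windows matched to genes of the table. Restricted to the 100 bases before the start site the shares were 40.9% and 3.22%. A CCAAT box (CCAAT or ATTGG) was in 31 of 44 (70.5%), against 36.3%, and both elements were in 24 (54.5%), against 5.11%. An E2F-type site (TTCCCGCC, TTTCCCGC or TTTGGCGC or their reverse complements) was in 6 of 44 (13.6%), against 6.54%. DNA replication genes, the other wave of the cell cycle, had a CHR core in 2 of 34 windows (5.88%) and an E2F-type site in 20 (58.8%), with a CCAAT box in 19 (55.9%). Among the lists most like the 53, a CHR core was in 18 of 36 windows of other spindle and centrosome genes (50%), 5 of 10 of other entry and exit regulators (50%) and 11 of 28 of other kinetochore genes (39.3%), and an E2F-type site in 25%, 10% and 21.4%. The CHR core was in 16 of 26 windows of genes that fell (61.5%) and in 15 of 17 of genes that did not pass (88.2%), a difference that was not tested. A match is a description of letters and not of binding.

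**Figure D4:**
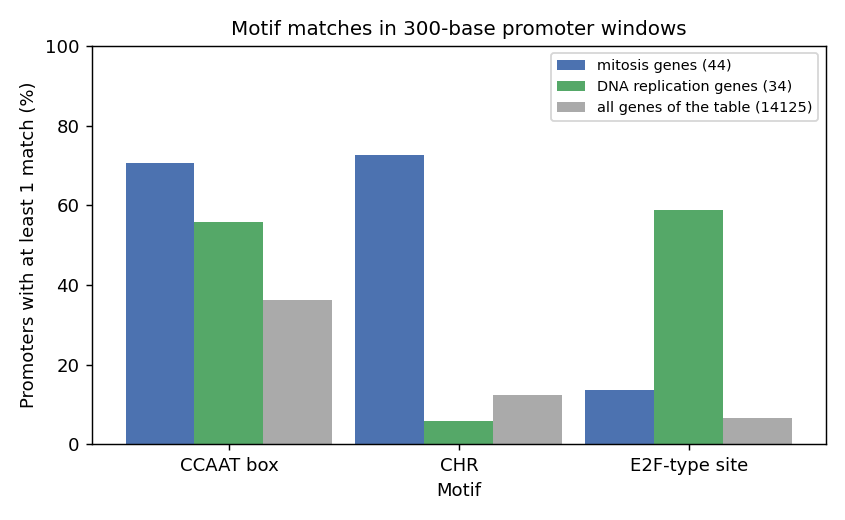
Share of promoter windows with at least 1 match (y axis, percent) for 3 motifs (x axis), in 44 mitosis genes, 34 DNA replication genes and 14125 genes of the table. The CHR bar is 72.7% for mitosis genes and 5.88% for replication genes, and the E2F-type bar 13.6% and 58.8%.

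The 150 bases before the start site are shown for 8 genes whose window holds both elements, 5 that fell (CCNB2, PLK1, KIF11, CDC20 and MKI67) and 3 that did not pass (CDCA8, ESPL1 and PRC1), to let the 2 kinds be compared letter by letter. Capitals mark CCAAT boxes and CHR cores on either strand, and in MKI67 and CDCA8 a CHR core and an inverted CCAAT box run into each other as TTTGAATTGG, sharing 1 base. The genes were chosen after their values were seen. The windows are chr15:59104996-59105145 for CCNB2 (plus strand), chr16:23678739-23678888 for PLK1 (plus strand), chr10:92592980-92593129 for KIF11 (plus strand), chr1:43358831-43358980 for CDC20 (plus strand), chr10:128126424-128126573 for MKI67 (minus strand), chr1:37692366-37692515 for CDCA8 (plus strand), chr12:53268149-53268298 for ESPL1 (plus strand) and chr15:90994536-90994685 for PRC1 (minus strand), and each is written 5′ to 3′ in the direction of its gene.
CCNB2: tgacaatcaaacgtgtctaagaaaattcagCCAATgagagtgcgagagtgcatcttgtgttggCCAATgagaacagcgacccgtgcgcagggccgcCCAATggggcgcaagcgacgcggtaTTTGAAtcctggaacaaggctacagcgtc
PLK1: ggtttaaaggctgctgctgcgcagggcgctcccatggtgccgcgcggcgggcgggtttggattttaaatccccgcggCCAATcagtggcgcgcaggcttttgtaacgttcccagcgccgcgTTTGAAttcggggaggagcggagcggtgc
KIF11: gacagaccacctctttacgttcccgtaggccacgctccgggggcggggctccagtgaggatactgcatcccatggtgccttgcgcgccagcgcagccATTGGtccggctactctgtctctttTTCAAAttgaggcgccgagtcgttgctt
CDC20: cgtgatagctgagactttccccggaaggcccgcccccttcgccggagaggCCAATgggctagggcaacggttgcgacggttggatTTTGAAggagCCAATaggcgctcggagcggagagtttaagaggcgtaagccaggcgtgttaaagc
MKI67: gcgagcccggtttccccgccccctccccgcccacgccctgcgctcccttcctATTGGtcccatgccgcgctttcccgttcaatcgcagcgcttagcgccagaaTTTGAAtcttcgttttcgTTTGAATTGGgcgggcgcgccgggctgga
CDCA8: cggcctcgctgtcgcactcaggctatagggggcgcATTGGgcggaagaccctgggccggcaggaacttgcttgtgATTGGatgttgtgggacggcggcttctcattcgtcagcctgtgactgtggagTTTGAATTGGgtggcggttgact
ESPL1: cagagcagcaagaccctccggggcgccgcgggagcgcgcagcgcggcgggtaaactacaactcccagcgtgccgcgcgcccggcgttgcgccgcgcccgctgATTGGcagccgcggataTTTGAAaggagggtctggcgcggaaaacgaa
PRC1: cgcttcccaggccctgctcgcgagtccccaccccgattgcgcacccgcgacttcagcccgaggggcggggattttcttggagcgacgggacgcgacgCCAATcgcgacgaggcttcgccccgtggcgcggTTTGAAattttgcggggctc
CCNB2 carries 3 CCAAT boxes ahead of its CHR core, and CDCA8, which did not pass, carries 3 as well. PLK1, KIF11, ESPL1 and PRC1 each have 1 CCAAT box followed by 1 CHR core nearer the start site, although PLK1 and KIF11 fell and ESPL1 and PRC1 did not pass. In CDC20 the CHR core sits between 2 CCAAT boxes.

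Lists of other genes of the same machinery were counted too, on the TMM scale and on TPM. Over all genes tested 30.5% were lower and 32.4% higher with TMM, and 11.1% and 56.9% on TPM. With library totals 17% were lower and 45.7% higher, and with trends on GC content and length removed 33.7% and 33.1%. Of 34 other kinetochore and centromere genes 24 fell and 3 rose (median -0.47; on TPM 9 lower and 7 higher, median -0.08), and with library totals 16 fell (median -0.22). The TMM fit was led by SKA2 (173 ± 22.1 to 66.6 ± 0.927 CPM, log2 fold change -1.38) and SKA3 (-0.86), subunits of the SKA complex that couples NDC80 to microtubules, while MIS12 (0.37), CENPQ (0.44) and CENPK (0.38) rose. Other spindle and centrosome genes numbered 36, of which 23 were lower and 1 higher (median -0.42; on TPM 8 lower and 10 higher, median 0.03). The alpha-tubulin gene TUBA1C went from 926 ± 53.4 to 436 ± 9.91 CPM (log2 fold change -1.09) and TACC3, a spindle-stabilizing protein, from 233 ± 21.2 to 118 ± 2.65 CPM (-0.98), while NUMA1, which anchors spindle poles, rose (0.32). Of 14 other regulators of entry and exit 9 fell and 1 rose (median -0.50; on TPM 4 lower and 5 higher, median -0.04), and with trends on GC content and length removed 7 fell (median -0.23). Lower with TMM were PKMYT1 (-0.82), a kinase that inhibits CDK1, and CDKN3 (-0.98), a phosphatase that inactivates it. MASTL, the Greatwall kinase, rose (0.48). The edgeR adjusted p of these named genes ran from 1.4e-06 for SKA2 to 0.0405 for CENPK.

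The anaphase-promoting complex and its regulators had 10 lower and 3 higher genes among 17 (median -0.34; on TPM 5 lower and 5 higher, median 0.09), with ANAPC7 (133 ± 2.34 to 69.1 ± 1.45 CPM, -0.94 on the log2 scale, edgeR adjusted p = 1.9e-06) and ANAPC15 (-1.45) lowest in adjusted p, and FBXO5 (0.53), FZR1 (0.25) and CDC23 (0.33) higher. Of 15 cohesin genes 5 (33.3%) fell, near the 30.5% of all genes, and 7 (46.7%) rose, against 32.4% (median 0.12; on TPM 0 lower and 9 higher, median 0.52). With library totals 1 fell and 8 rose (median 0.37), and with trends on GC content and length removed the median was 0.03. MAU2, a subunit of the cohesin loader, rose from 25.0 ± 2.09 to 39.6 ± 1.34 CPM (0.66, edgeR adjusted p = 9.0e-05), and SGO1, the protector of centromeric cohesin, fell from 21.4 ± 1.51 to 14.3 ± 0.720 CPM (-0.58, edgeR adjusted p = 4.6e-04), as did STAG1 (-0.48) and PDS5B (-0.52). Of the 3 subunits particular to condensin II, NCAPH2 fell (-0.75) and NCAPG2 (-0.17) and NCAPD3 (0.11) did not pass. Of 22 factors that drive or restrain the wave 7 (31.8%) were lower and 6 (27.3%) higher, near the 30.5% and 32.4% of all genes (median -0.04; on TPM 1 lower and 13 higher, median 0.41). That median was 0.06 without control replicate 3 and 0.01 with upper quartile scaling. E2F1, an activator of the G1/S wave, fell from 113 ± 7.31 to 62.7 ± 2.99 CPM (-0.85, edgeR adjusted p = 1.0e-05). RBL2, the pocket protein p130 of the repressor complex DREAM, rose from 23.5 ± 6.90 to 51.9 ± 1.92 CPM (1.14, edgeR adjusted p = 1.5e-04). NFYA (0.73), a subunit of NF-Y, and E2F5 (1.27) rose too. In contrast, the NF-Y subunit genes NFYB (-0.52) and NFYC (-0.50) fell. Of the other pocket protein genes RB1 rose like RBL2 (0.68, edgeR adjusted p = 0.0062) and RBL1 fell (-0.44). Neither NF-Y nor the pocket proteins thus moved as 1. Of the 37 DNA replication genes 34 were lower and 0 higher (median -0.71; on TPM 17 lower and 3 higher, median -0.21), among them MCM5 (-1.37), a subunit of the replicative helicase, and GINS1 (-1.06). The difference between that list and the 53 mitosis genes was not tested.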

How the data were processed

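RNA-seq of 6 T47D libraries was used, 3 per group. Per the submitters' processing notes the tools were HISAT2 2.1.0 and Bowtie2 2.3.4.3 with GRCh38.p13. The sources used here give no role for either tool and no counter, annotation, RNA selection or strand setting, so reads of overlapping genes may be split wrongly. The authors deposited, per the file headers, read counts, FPKM and TPM per gene and library. The values deposited by the authors as read counts are of the expected count kind (estimated counts), since 44.1% to 45.9% of values per library lay more than 1e-06 from a whole number, and they were rounded. The authors' 6 columns of group means were not used.

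Counts were scaled by TMM, filtered with filterByExpr and tested with edgeR 4.0.16 in R 4.3.3 (robust quasi-likelihood, group as the only term), with Benjamini-Hochberg adjustment over 14076 genes and a threshold of 0.05. Intervals are 95%. One count was worth 0.0551 to 0.0678 CPM, and a count of 0 allows up to 3 counts (0.165 to 0.203 CPM), for counting error only. edgeR was also run on data simulated from these means and library sizes. There it called 83.3% of 66 changes of 1.5-fold, 95.7% of 70 of 2-fold and 100% of 64 of 4-fold. Of the 14018 genes tested there 13818 were unchanged, and 14 of those were called. Between the PRL and control libraries 62.9% of genes were called, and recovery with changes that common was not tested. The 20 alternatives used DESeq2 1.42.0, limma 3.58.1 and mgcv 1.9.3, other scalings and filters, FPKM and TPM (pseudocount 1 or 0.1, mean of at least 1), trends on GC content and length removed, the replicate block, and each library left out.

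Values per library are given for MKI67 and TOP2A and, in each role group, for the 2 genes with the smallest and the 1 with the largest adjusted p and any gene called against its group. Of other lists the 2 smallest in adjusted p and up to 3 called against the list are named. SPC24, NFYB, NFYC, RBL1 and RB1 were added after their values were seen. The members and lists were chosen with earlier results of these data known. Positions and exon overlaps are from GENCODE 29 (GRCh38), promoters from RefSeq (GRCh38.p14).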

Additional observations from a re-analysis of the deposited data

How the results depend on the processing

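Leaving out 1 library at a time gave 32 to 34 lower, 0 to 7 higher and a median log2 fold change of -0.49 to -0.33, the latter without control replicate 3. Over all genes 25.7% to 32.7% were lower and 27.6% to 36.7% higher in these fits. With library totals 26 fell and 6 rose (median -0.17). On log2(FPKM + 1) 27 fell and 4 rose (median -0.22), and on log2(FPKM + 0.1) 27 fell and 4 rose (median -0.24). On log2(TPM + 1) 12 fell and 13 rose (median -0.042). DESeq2 called 34 lower and 0 higher. Over all genes 17% were lower and 45.7% higher with library totals, and 19.9% and 46.2% on log2(FPKM + 1). The shares were 19.9% and 45.8% on log2(FPKM + 0.1), 11.1% and 56.9% on TPM, and 29.9% and 29.8% in DESeq2. In the other alternatives on counts (DESeq2 size factors or upper quartile scaling in edgeR, no PRL or no ribosomal protein genes, other filters, limma-voom) 32 to 34 fell and 1 rose. Over all genes these called 24.9% to 31.6% lower and 26.3% to 35.3% higher. With trends on GC content and length removed 37 fell and 0 rose, against 33.7% and 33.1% of all genes. The share of called genes that rose, over all genes, was 51.4% with TMM, 72.9% with library totals, 69.9% on log2(FPKM + 1) and 83.7% on TPM.

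Single genes changed sign as follows. NUF2 was at 0.0075 with library totals, 0.0011 on log2(FPKM + 1), 0.0013 on log2(FPKM + 0.1) and 0.19 on TPM. On TPM the log2 difference was 0.35 for CDK1, 0.070 for AURKA, 0.43 for MAD2L1, 0.075 for KIF2C, 0.047 for KIF20A, 0.34 for PRC1, 0.017 for NUSAP1, 0.38 for RACGAP1, 0.40 for SMC2 and 0.18 for TOP2A. Leaving out 1 library at a time put MAD2L1 between -0.16 (without control replicate 2) and 0.21 (without control replicate 3). The cause was not tested. Of all values of single genes under the alternatives, 966 kept their side of the threshold, 45 lost a call, 34 gained one and 15 reversed. Among the 966 are 67 changes of sign between values that both did not pass.

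With the replicate number as a block 33 fell and 1 rose (median -0.41), against 29.2% and 31.4% of all genes. NUF2 lost its call and BUB1B gained one. Libraries with the same number did not deviate together (correlations across genes -0.11, 0.04 and -0.06). The PRL libraries differed little from each other (chi-square per gene 1.66 to 2.17), so this check could hardly have shown a pairing. Precision is limited by 3 libraries per group, by controls that vary more than PRL libraries, and by a scale that no spike-in fixes in the files used here.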
